A study of Rattus norvegicus with 15 samples.

Results

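The genes described here are those of the Fos and Jun families and *Atf3*, whose proteins form the transcription factor AP-1, in the inferior colliculus (IC) of the rat, the auditory nucleus of the midbrain. Members were the probe sets that the platform's annotation gives under the symbols *Fos*, *Fosb*, *Fosl1*, *Fosl2*, *Jun*, *Junb*, *Jund* and *Atf3*, and where a gene has several, the one brightest on average over the 15 arrays was used. Of these 8 genes, 7 were measured, of 14506 genes measured under a name. No probe set is annotated as *Fosb*, which is not analysed here, and *Fosl2* has a second probe set that is given beside the one used.

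RNA of the IC was hybridized to Affymetrix Rat Gene arrays, and the deposited values are log2 levels made by RMA, so that a difference of 1 is a change of 2-fold. The groups were 5 arrays of sound-stimulated Wistar Audiogenic Rats (WAR S), 2 of sound-stimulated Wistar rats (Wistar S), 4 of naïve WAR (WAR N) and 4 of naïve Wistar rats (Wistar N). All rats were males of 12 weeks, and every array is titled a biological replicate. The WAR is bred from Wistar rats for seizures evoked by loud sound, so that stimulated WAR had seizures and stimulated Wistar rats, exposed in the same way, did not. Tissue of stimulated rats was taken 60 min after the stimulus, and among stimulated arrays the strain and the seizure cannot be told apart. By the labels WAR and Wistar rats came from different suppliers, whereas the methods of the study name a single facility for both, and if the labels hold, strain and supplier cannot be told apart either. The methods also give other numbers of stimulated rats of each strain than the labels, which were followed. The design text of the deposit has all rats exposed to sound, whereas each naïve sample is marked as exposed to nothing, and the mark of the sample was followed.

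AP-1 is a dimer of proteins with a basic region that touches DNA and a leucine zipper that holds the partners together. Fos proteins need a Jun protein as a partner, whereas Jun proteins can also pair with each other, and the dimers bind the AP-1 site or the related cyclic AMP response element (CRE). *Fos* and *Junb* are immediate early genes, which neurons transcribe soon after strong synaptic input without new protein synthesis, and the c-Fos protein is widely used to map neurons that were active, in the auditory midbrain as elsewhere.

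Some arrays stood apart or shared values. Stimulated and naïve arrays appear to have been normalized apart, since any 2 stimulated arrays held identical values at 2675 to 3286 probe sets, any 2 naïve arrays at 2 to 13, and a stimulated and a naïve array at 0. Levels were therefore compared within stimulated or within naïve arrays, and tied values have no spread among themselves. Along the first principal component of the naïve arrays (62.8% of the variance), Wistar N replicate 1 scored 23.2, just above the 4 WAR N arrays (12.7 to 22.7), and the other 3 Wistar N arrays scored −36.9 to −32.0. That of the stimulated arrays held 37.3% of the variance. On it, WAR S replicates 3 and 4 scored −9.85 and −15.8, and replicates 1, 2 and 5 scored 0.15, 0.71 and −3.9. The 2 Wistar S arrays scored 13.2 and 15.5. The arrays were split in 2 by the running numbers in the sample descriptions. Label set 1 is 9 arrays numbered 1 to 9 without a repeat, WAR S replicates 1, 2 and 5 among them. Label set 2 is the other 6 arrays, whose numbers repeat some of those, WAR S replicates 3 and 4 among them. WAR S replicates 3 and 5 carry the same number, as do replicates 2 and 4. Wistar S replicates 1 and 2 share theirs with Wistar N replicate 3 and WAR N replicate 4, placed in label set 2. Wistar N replicates 1 and 2 and WAR N replicate 3 also share a number. The numbers alone therefore do not fix this split, in stimulated or in naïve arrays. No source calls the label sets a batch, and both Wistar S arrays were placed in label set 1. Over the 15 arrays the mean log2 level was 10.43 to 11.05 for 11 neuronal markers and 6.33 to 6.92 for 6 markers of the neighbouring cerebellum. Probe sets differ in affinity, so these levels do not measure how much of each tissue was taken. In such whole tissue, fewer cells of a type and less RNA per cell cannot be told apart.

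*Fos* was the member with the widest spread among stimulated WAR. Its log2 levels (probe set 10886031) were 9.34 and 9.00 in WAR S replicates 3 and 4 and 7.65, 7.70 and 7.66 in WAR S replicates 1, 2 and 5, against 7.51 and 7.49 in Wistar S. All 5 WAR S arrays lay above both Wistar S arrays, but replicates 3 and 4 were 3.58 and 2.84 times the Wistar S mean, and the other 3 were 1.11 to 1.15 times that mean. Mean levels were 8.27 ± 0.83 in WAR S (SD, n = 5) and 7.50 ± 0.017 in Wistar S (SD, n = 2), a log2 difference of 0.77 (SE 0.41, 95% confidence interval −0.10 to 1.65). The difference did not pass the limma test over all genes (adjusted p = 0.861, exact two-sided permutation p = 0.0952, where the 21 splits of 5 and 2 arrays cannot go below 0.0476). Without WAR S replicates 3 and 4, that is within label set 1, the log2 difference was 0.17, and without replicate 3 alone it was 0.50. In the naïve arrays, *Fos* stood at 7.62, 7.55, 7.62 and 8.20 in WAR N and at 7.69, 8.38, 7.99 and 8.15 in Wistar N. These groups overlapped, with a log2 difference of −0.31 (SE 0.35, limma adjusted p = 0.566, interval −1.05 to 0.43).

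**Figure D1:**
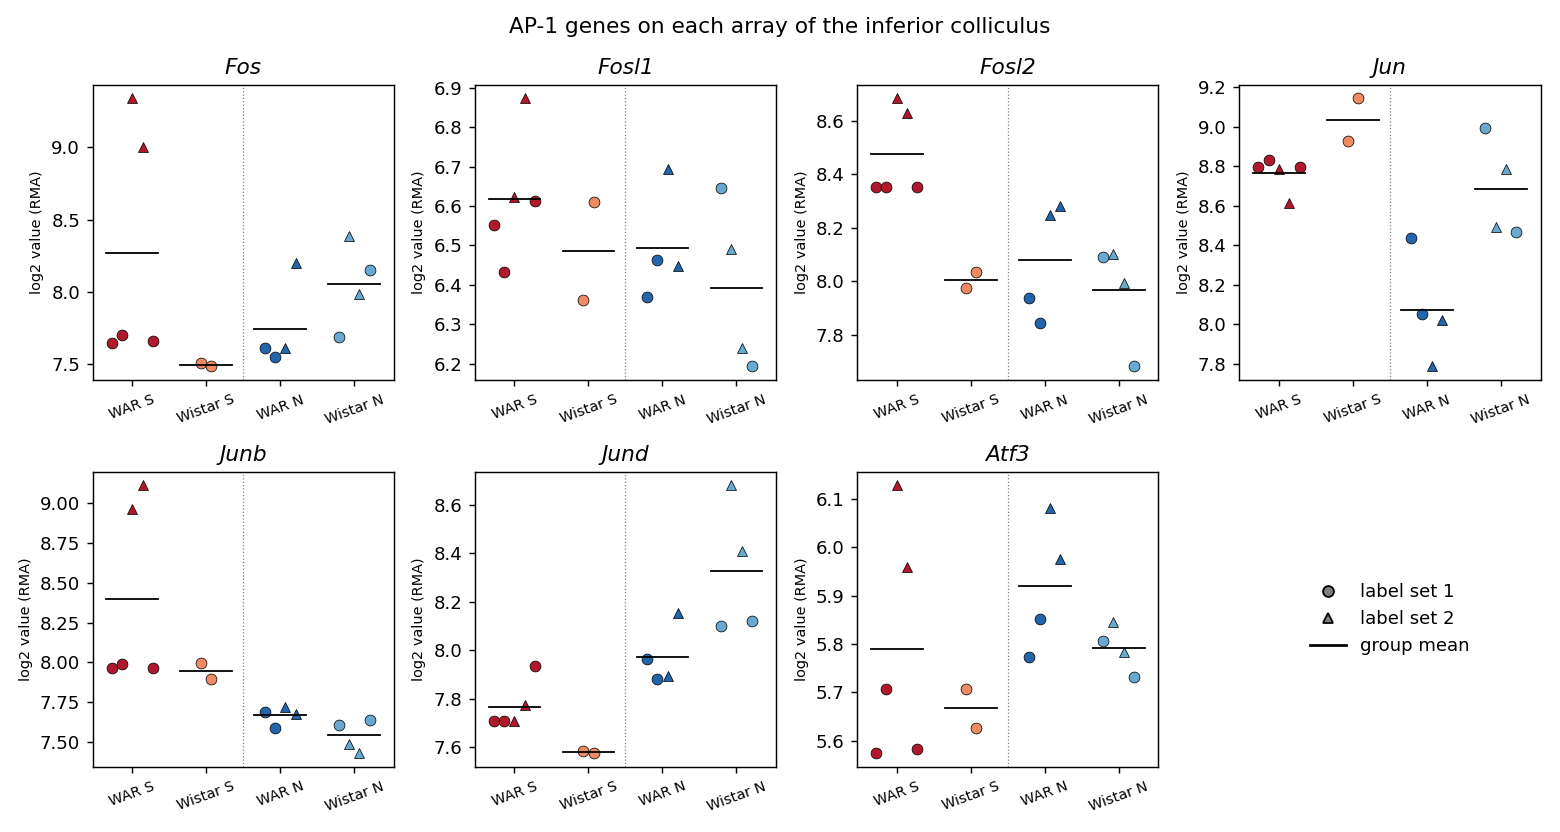
Log2 level (RMA) of the 7 measured AP-1 genes on each of the 15 arrays, in panels with separate vertical axes. Points are single arrays (circles, label set 1; triangles, label set 2), lines are group means, and the dotted line parts the stimulated from the naïve arrays, which were compared separately. For *Fos* and *Junb*, WAR S replicates 3 and 4 (triangles) lie between 8.96 and 9.34, above the other 3 WAR S arrays and both Wistar S arrays.

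Fra-1 and Fra-2 have weaker activation domains than c-Fos. *Fosl2*, which encodes Fra-2, was the member with the smallest p between the strains in stimulated arrays. Its levels (probe set 10940628) were 8.68 and 8.63 in WAR S replicates 3 and 4 and 8.35 in each of WAR S replicates 1, 2 and 5, against 7.98 and 8.04 in Wistar S. Every WAR S array was above both Wistar S arrays, and the 3 equal values are ties of the kind described above. The log2 difference was 0.47 (SE 0.15, interval 0.15 to 0.78), with an unadjusted p of 0.00641 and an adjusted p of 0.304 by limma. The exact permutation p was 0.0476, the smallest that the 21 splits can give. Its second probe set (10940647) differed by 0.39 (SE 0.14, limma adjusted p = 0.479), and within label set 1 the first differed by 0.35. In naïve arrays *Fosl2* had 7.94, 7.84, 8.25 and 8.28 in WAR N, against 8.09, 8.10, 7.99 and 7.68 in Wistar N, which overlap (log2 difference 0.11, SE 0.12).

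*Fosl1*, which encodes Fra-1, did not separate the groups. Its levels (probe set 10713045) ranged from 6.43 to 6.87 in WAR S, against 6.36 and 6.61 in Wistar S, a log2 difference of 0.13 (interval −0.17 to 0.43). Naïve levels were 6.37 to 6.69 in WAR N, against 6.19 to 6.65 in Wistar N, a log2 difference of 0.10 (interval −0.15 to 0.35).

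*Jun*, which encodes the partner c-Jun, was the member with lower values in WAR in both settings. In naïve arrays its levels (probe set 10878112) were 8.44, 8.05, 7.79 and 8.02 in WAR N, against 8.99, 8.49, 8.79 and 8.47 in Wistar N. The highest WAR N array lay below the lowest Wistar N array. *Jun* fell by 0.61 on the log2 scale (SE 0.14, interval −0.90 to −0.32), to 0.655 times the Wistar N level, and passed the limma test (adjusted p = 0.00705), with the smallest permutation p that the 70 splits of 4 and 4 arrays can give (exact two-sided p = 0.0286). In stimulated arrays *Jun* had 8.80, 8.83, 8.79, 8.61 and 8.80 in WAR S replicates 1 to 5, against 8.93 and 9.14 in Wistar S. The groups again did not overlap, but the log2 difference of −0.27 (SE 0.16, interval −0.62 to 0.07) did not pass the limma test (adjusted p = 0.983, exact permutation p = 0.0476), and it was −0.16 without Wistar S replicate 2. Here replicates 3 and 4, high for *Fos*, had the lowest *Jun* values of the 5.

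*Jund*, the member of the family that many tissues transcribe without a stimulus, had opposite signs in the 2 settings. In naïve arrays its levels (probe set 10790948) were 7.97, 7.88, 7.89 and 8.15 in WAR N, against 8.10, 8.68, 8.41 and 8.12 in Wistar N. WAR N replicate 4 was above 2 of the Wistar N arrays, so that the groups overlapped. *Jund* fell by 0.35 on the log2 scale (SE 0.11, interval −0.60 to −0.11) and passed the limma test narrowly (adjusted p = 0.0413, exact permutation p = 0.0857). In stimulated arrays it had 7.71, 7.71, 7.71, 7.78 and 7.94 in WAR S replicates 1 to 5, against 7.58 and 7.58 in Wistar S. All WAR S arrays were higher, with a log2 difference of 0.19 (SE 0.14, limma adjusted p = 1, interval −0.10 to 0.48), and 3 of them shared a single value.

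The strain difference of *Jund* in stimulated arrays exceeded that in naïve arrays by 0.54 on the log2 scale (SE 0.18). This interaction had an unadjusted p of 0.00859 and did not pass after adjustment over all genes (limma adjusted p = 0.184), and without Wistar N replicate 1, the array that stood apart, it was 0.62 and passed (limma adjusted p = 0.0167) in a fit that called 20.4% of all genes. The *Jund* call among naïve arrays was lost in 5 of the 8 fits that left out 1 naïve array, namely Wistar N replicate 2 (adjusted p = 0.112) or 3 (0.107) or WAR N replicate 1 (0.0842), 2 (0.0915) or 3 (0.1) by limma. The *Jun* call was kept in all 8, with limma adjusted p between 0.00499 and 0.0251. Without Wistar N replicate 1 both were called, *Jun* at −0.51 (limma adjusted p = 0.00545) and *Jund* at −0.43 (0.00659), in a fit that called 41.1% of all genes. Within label set 2 *Jun* differed by −0.74 and *Jund* by −0.52 (limma adjusted p = 0.0115 and 0.0315), and within label set 1 by −0.48 and −0.19 (0.252 and 0.389), each from 2 arrays per strain. With only the naïve arrays in the model, neither passed (limma adjusted p = 0.0587 for *Jun* and 0.155 for *Jund*).

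*Junb* was the second member with 2 high WAR S arrays. The JunB protein pairs with Fos proteins and activates transcription less than c-Jun at many promoters. Its levels (probe set 10806585) were 8.96 and 9.11 in WAR S replicates 3 and 4 and 7.97, 7.99 and 7.97 in replicates 1, 2 and 5, against 8.00 and 7.89 in Wistar S. Replicates 3 and 4 were 2.02 and 2.24 times the Wistar S mean, whereas the other 3 lay between the 2 Wistar S values. The log2 difference of WAR S from Wistar S was 0.45 (SE 0.27, limma adjusted p = 0.986, interval −0.13 to 1.03), and within label set 1 it was 0.03. It was 0.27 without WAR S replicate 4 alone. In naïve arrays *Junb* ranged from 7.59 to 7.72 in WAR N, against 7.43 to 7.64 in Wistar N, a log2 difference of 0.13 (SE 0.23).

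*Atf3*, which encodes a bZIP protein induced by stress and injury that pairs with c-Jun, followed the same order on a smaller scale. Its levels (probe set 10770710) were 6.13 and 5.96 in WAR S replicates 3 and 4 and 5.57, 5.71 and 5.58 in replicates 1, 2 and 5, against 5.71 and 5.63 in Wistar S. The strain groups overlapped, with log2 differences of 0.12 (SE 0.13) in stimulated and 0.13 (SE 0.11) in naïve arrays. In WAR N, label set 2 was also above label set 1 (6.08 and 5.98, against 5.77 and 5.85). In Wistar N the label sets overlapped (5.85 and 5.78, against 5.81 and 5.73). *Atf3* was a dim member, with a mean level above that of 20.4% of genes.

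The promoters of *Junb*, *Fosl2* and *Jund* are shown because *Junb* was high in only WAR S replicates 3 and 4, *Fosl2* had the smallest p between the stimulated groups, and *Jund* had values in replicates 3 and 4 (7.71 and 7.78) within the range of replicates 1, 2 and 5 (7.71 to 7.94). The sequences are from RefSeq (GRCr8), and 5 of the 8 symbols matched the promoter table used here, which is not complete (*Fos*, *Jun* and *Atf3* did not match). Each holds the 250 bases before the annotated start, 5′ to 3′ on the strand of the gene, with matches to the searched motifs in capitals. *Junb* lies on the plus strand (chr19:40080876-40081125), *Fosl2* on the minus strand (chr6:30039270-30039519) and *Jund* on the minus strand (chr16:18769772-18770021).
Junb: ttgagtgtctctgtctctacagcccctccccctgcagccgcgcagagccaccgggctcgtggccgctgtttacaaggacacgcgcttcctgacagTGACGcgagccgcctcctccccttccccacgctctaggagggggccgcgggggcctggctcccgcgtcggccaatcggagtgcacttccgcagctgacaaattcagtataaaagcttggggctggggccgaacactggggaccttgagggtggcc
Fosl2: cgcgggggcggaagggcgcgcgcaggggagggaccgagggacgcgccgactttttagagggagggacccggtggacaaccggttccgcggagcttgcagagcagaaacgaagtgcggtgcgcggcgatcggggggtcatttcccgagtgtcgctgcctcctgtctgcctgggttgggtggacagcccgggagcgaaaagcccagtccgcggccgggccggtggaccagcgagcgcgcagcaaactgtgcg
Jund: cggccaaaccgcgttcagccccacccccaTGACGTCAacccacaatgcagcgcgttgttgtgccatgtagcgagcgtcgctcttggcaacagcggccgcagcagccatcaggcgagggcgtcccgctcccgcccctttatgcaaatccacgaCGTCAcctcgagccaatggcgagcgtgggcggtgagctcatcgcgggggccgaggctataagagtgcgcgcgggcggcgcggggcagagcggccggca
The motifs, searched on both strands, were the AP-1 site TGANTCA, the full CRE TGACGTCA, the short CRE motif TGACG, which the full CRE contains, and the CArG box of the serum response element. *Junb* held a TGACG at 155 to 151 bases before the start. *Jund* held a full CRE at 221 to 214 bases and a further TGACG, on the opposite strand, at 98 to 94 bases before the start. *Fosl2* held no match in this window. Of 33469 promoters of the same length, 6.34% held the AP-1 site, 1.59% the full CRE, 18.2% the short motif and 1.5% the CArG box. These are matches of letters and not measured binding.

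Counted over the members, the strain comparison of stimulated arrays called none of the 7 (limma, against 0.414% of all genes), and 1, *Fosl2*, had an unadjusted p of at most 0.05 (6.85% of all genes). In that comparison 3 members did not overlap and were higher in WAR S (*Fos*, *Fosl2* and *Jund*, where 12.4% of all genes did so), and 1, *Jun*, was lower without overlap (8.22% of all genes). The comparison of naïve arrays called 2 of the 7, both lower in WAR N, where 9.38% of all genes were called lower and 11.6% higher, and 1 of them, *Jun*, did not overlap (5.51% of all genes were lower without overlap). The median log2 difference of the members was 0.19 in stimulated arrays, against 0.010 over all genes, and 0.10 in naïve arrays, against 0.023 over all genes. The interaction called none of the 7 (0.103% of all genes), and *Jund* alone had an unadjusted p of at most 0.05 (15% of all genes).

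**Figure D2:**
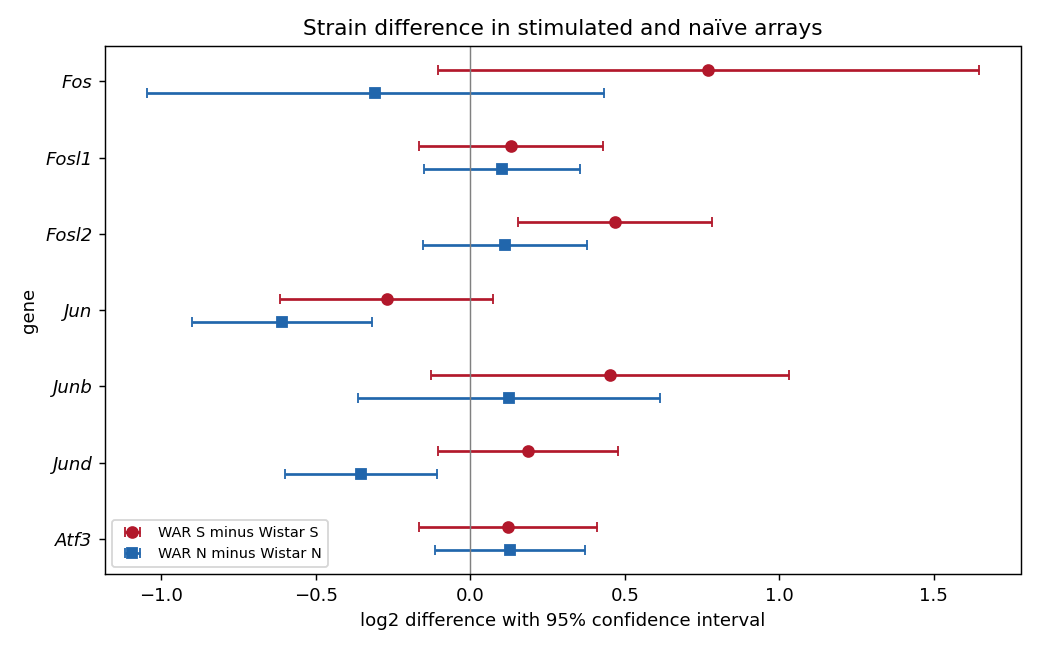
Strain difference of each AP-1 gene as a log2 difference with its 95% confidence interval (limma), WAR S minus Wistar S as circles (5 and 2 arrays) and WAR N minus Wistar N as squares (4 and 4 arrays). Intervals that leave out 0 are those of *Fosl2* in stimulated arrays and of *Jun* and *Jund* in naïve arrays.

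The second question was how the stimulated WAR differ among themselves. The SD of *Fos* over the 5 WAR S arrays was 0.831, the fifth highest of the 14506 genes, and that of *Junb* was 0.585, at rank 51. *Atf3* followed with 0.245, above the SD of 92.5% of genes, and the SDs of *Fosl2* (0.167), *Fosl1* (0.161), *Jund* (0.0988) and *Jun* (0.0867) were lower, where the median over all genes was 0.0951. In WAR N the SD of *Junb* was 0.056, higher than that of 9.04% of genes, and that of *Fos* was 0.304, higher than that of 93.9%.

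Set by label set, WAR S replicates 3 and 4 differed from replicates 1, 2 and 5 most clearly in *Junb* and *Fos*. *Junb* averaged 9.04 ± 0.11 in label set 2 (SD, n = 2) and 7.97 ± 0.012 in label set 1 (SD, n = 3), a log2 difference of 1.06 (SE 0.075, limma adjusted p = 0.000328), the smallest p of all genes. *Fos* averaged 9.17 ± 0.24 in label set 2 (SD, n = 2) and 7.67 ± 0.028 in label set 1 (SD, n = 3), a log2 difference of 1.50 (SE 0.19, limma adjusted p = 0.0294), or 2.83-fold, the second largest rise of all genes. These 2 members were called of 7, both higher in label set 2, where 0.0414% of all genes, 6 genes, were called higher. The running numbers do not fix this split, and the tests were chosen with earlier results of these data known. The p-values between the label sets are therefore descriptive. *Atf3* differed by 0.42 (SE 0.083, limma adjusted p = 0.278), *Fosl2* by 0.30 (SE 0.11, 0.721) and *Fosl1* by 0.22 (SE 0.15, adjusted p = 1), each without overlap. *Jun* (−0.11, SE 0.17) was lower without overlap and *Jund* (−0.04, SE 0.11) overlapped, so that 5 members were higher without overlap, against 9.55% of all genes, and 1 was lower, against 16.9%.

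The permutation test of 2 against 3 arrays cannot go below an exact p of 0.1, and *Fos*, *Junb*, *Atf3*, *Fosl1*, *Fosl2* and *Jun* all reached that value. The limma calls also rest on the spread of all 15 arrays. With only the 5 WAR S arrays in the model both calls were lost (limma adjusted p = 0.184 for *Fos* and for *Junb*), and none of the 14506 genes was called. Leaving out WAR S replicate 1, 2 or 5 kept the *Junb* call (limma adjusted p = 0.00503, 0.00434 and 0.00445). The *Fos* call was lost in these fits (limma adjusted p = 0.146, 0.141 and 0.102), which called 0.00689%, 0.00689% and 0.0207% of all genes. Leaving out replicate 3 or 4 leaves 1 WAR S array in label set 2. There *Junb* differed by 1.14 and 0.99 and *Fos* by 1.33 and 1.67. Markers of other cells moved with the label sets in WAR S, and their part in these differences was not tested. The mean log2 level of 6 ependymal and choroid plexus markers was 6.69 to 6.74 in label set 2, against 6.46 to 6.58 in label set 1, that of 8 astrocyte markers was 11.04 to 11.17, against 10.91 to 10.97, and that of 11 neuronal markers was 10.78 to 10.88, against 10.90 to 11.02. Oligodendrocyte markers (5, at 11.98 to 12.09, against 11.91 to 11.94) and meningeal fibroblast markers (6, at 7.16 to 7.17, against 7.09 to 7.15) did not overlap either, and the other 5 lists did.

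The same split of the naïve arrays gave smaller differences for both genes. Label set 2 minus label set 1, averaged over both strains (4 and 4 arrays), was −0.05 for *Junb* (SE 0.058, interval −0.18 to 0.08) and 0.29 for *Fos* (SE 0.15, interval −0.03 to 0.62). No member was called there (limma, 0.00689% of all genes), and 2, *Fosl2* (0.27, SE 0.082) and *Jund* (0.27, SE 0.086), had an unadjusted p of at most 0.05 (12.2% of all genes). The difference between the label set effect in WAR S and that in naïve arrays, a test added after the values had been seen, was 1.12 for *Junb* (SE 0.095, limma adjusted p = 0.00225), 1 of 2 genes called (0.0138% of all genes). For *Fos* it was 1.21 (SE 0.24), with an unadjusted p of 0.000364 and an adjusted p of 1 by limma. The other gene called was *Npas4*, a transcription factor gene induced by calcium entry in neurons (1.68, SE 0.19, limma adjusted p = 0.0154).

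**Figure D3:**
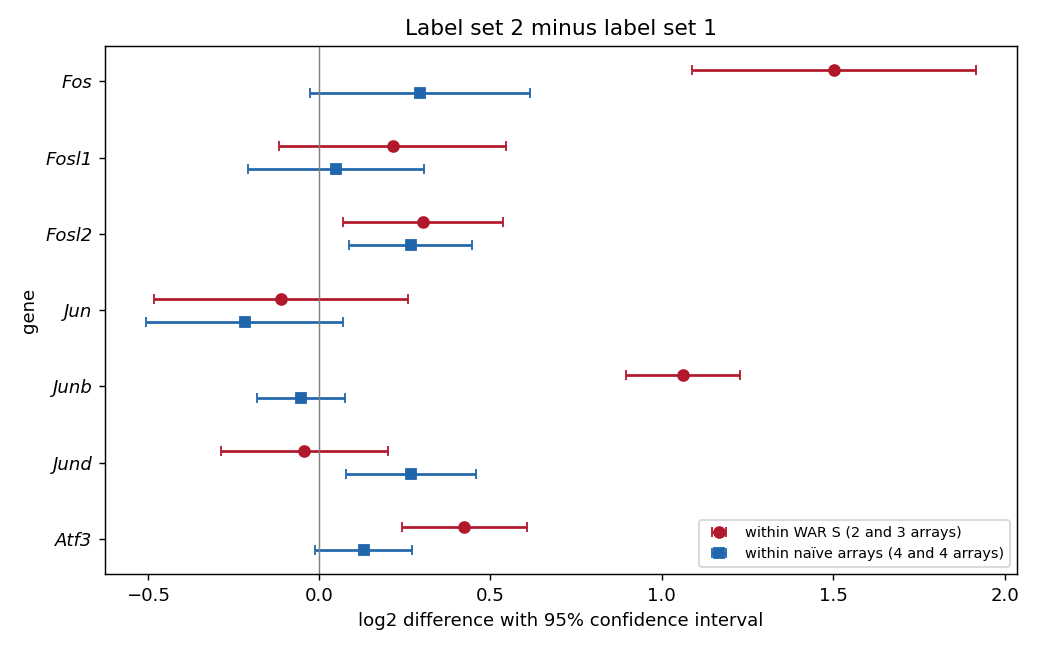
Label set 2 minus label set 1 for each AP-1 gene, as a log2 difference with its 95% confidence interval (limma), within WAR S as circles (2 and 3 arrays) and within the naïve arrays as squares (4 and 4 arrays, mean over both strains). Within WAR S *Fos* lies at 1.50 and *Junb* at 1.06, and in naïve arrays *Fos* lies at 0.29 and *Junb* at −0.05.

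The genes whose deviations from the group means over the 15 arrays were most like those of *Fos* were *Arc* (r = 0.922, rho = 0.85), which encodes a synaptic protein and is transcribed on activity, *Zbtb16* (r = 0.909, rho = 0.863), a zinc finger repressor gene, 4933412E24Rikl (r = 0.908, rho = 0.924), *Nr4a3* (r = 0.884, rho = 0.814), an orphan nuclear receptor gene of the immediate early class, and *Lrp4* (r = 0.881, rho = 0.821), a receptor gene of the neuromuscular junction. Among the members, *Junb* had rank 6 of all genes in this likeness (r = 0.87, rho = 0.693) and *Atf3* rank 11 (r = 0.838, rho = 0.782), followed by *Fosl2* at rank 249 (r = 0.593). *Fosl1* (rank 2560), *Jund* (rank 3062) and *Jun* (rank 11743, r = −0.327) ranked far lower. Without WAR S replicates 3 and 4, the arrays where *Fos* lay farthest from its group mean, r over the other 13 arrays was 0.833 for *Arc*, 0.726 for *Junb* and 0.644 for *Atf3*. The group means still included replicates 3 and 4, so the split among the WAR S arrays remains in these 13-array values. These values describe arrays that share the label sets and the normalization.

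Other genes induced by neuronal activity gave the context of the *Fos* values. Of 24 symbols listed for such genes, 22 were measured, and 2 passed the test as higher in WAR S (0.214% of all genes). These were the zinc finger genes *Egr3* (1.05, SE 0.18, limma adjusted p = 0.0212) and *Klf10* (0.76, SE 0.15, 0.0466). *Egr3* lay between 0.91 and 1.24 above the Wistar S mean in all 5 WAR S arrays. *Klf10* lay 0.59 above that mean in replicates 1, 2 and 5, which are tied, and 1.05 and 0.997 above it in replicates 3 and 4. Between the label sets of WAR S, 2 of the 22 were called, *Npas4* (1.36, SE 0.15, limma adjusted p = 0.012) and *Arc* (1.03, SE 0.14, 0.0294), both higher in label set 2 (0.0414% of all genes were called higher). *Npas4* stood 1.33 and 1.53 above the Wistar S mean in replicates 3 and 4, and −0.09 to 0.16 from it in the other 3. In that comparison 13 of the 22 were higher in label set 2 without overlap and 1 was lower (9.55% and 16.9% of all genes), with a median log2 difference of 0.32, against −0.017 over all genes. In naïve arrays 2 were called, both lower in WAR N (9.38% of all genes), *Dusp6* (−0.65, limma adjusted p = 0.0135), which encodes a phosphatase of ERK, and *Ier5* (−0.54, 0.00987).

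**Figure D4:**
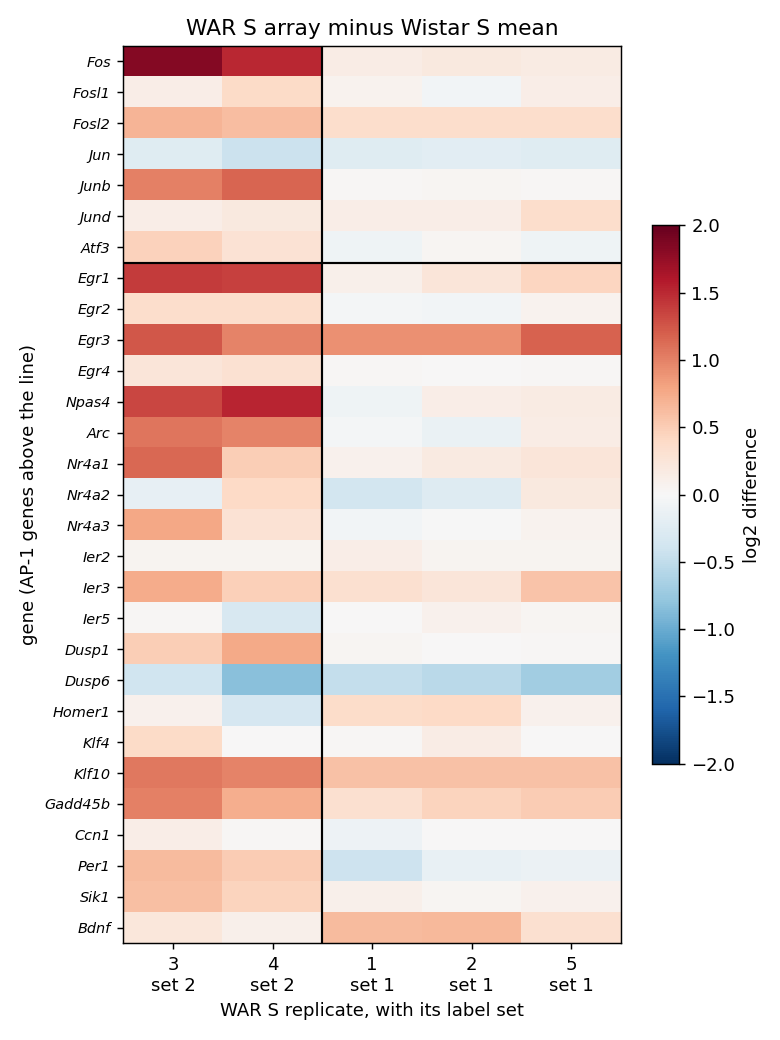
Log2 difference of each WAR S array (columns, with its label set) from the mean of the 2 Wistar S arrays, as colour, for the 7 AP-1 genes above the line and the 22 other activity-induced genes below it. The columns of replicates 3 and 4 are dark for *Fos*, *Junb*, *Npas4* and *Arc*, whereas *Egr3* is raised in all 5 columns.

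Partners, upstream genes and targets of AP-1 were looked at as lists. Of 17 measured genes for other bZIP proteins, none was called between the stimulated groups (smallest p in *Atf2*, 0.39, SE 0.13, limma adjusted p = 0.371) and none between the label sets of WAR S (smallest p in *Nfil3*, 0.30, SE 0.11, 0.733). In naïve arrays 3 were called higher in WAR N, *Atf2* (0.48, limma adjusted p = 0.00877) and *Atf1* (0.40, 0.0154), which bind the CRE, and *Jdp2* (0.41, 0.0342), a repressor that pairs with c-Jun. *Mafk*, a small Maf gene, was called lower (−0.29, limma adjusted p = 0.0304). Over all genes, 11.6% were called higher and 9.38% lower in that comparison.

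Of 20 measured kinases and regulators that act on *Fos* and *Jun* transcription, none was called between the stimulated groups (smallest p in *Map2k4*, 0.15, limma adjusted p = 0.811) or between the label sets of WAR S (smallest p in *Mapk9*, −0.21, 0.889). In naïve arrays 6 were called higher and 3 lower in WAR N (11.6% and 9.38% of all genes), and the 6 with the smallest p are named. The c-Jun kinase gene *Mapk8* (0.81, SE 0.17, limma adjusted p = 0.00491) and its activator *Map2k4* (0.30, SE 0.063, 0.00497) were higher, as were *Creb1* (0.39, 0.0149) and *Elk4* (0.47, 0.0154), whose products bind the *Fos* promoter. The ERK kinase genes *Map2k1* (−0.47, limma adjusted p = 0.00707) and *Map2k2* (−0.52, 0.0105) were lower.

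Of 19 measured genes with known AP-1 sites or dependence, none was called between the stimulated groups (smallest p in *Penk*, 0.68, SE 0.23, limma adjusted p = 0.384) or between the label sets of WAR S. In the label set comparison their median log2 difference was −0.0020, against −0.017 over all genes, and the smallest p was that of *Plat*, which encodes tissue plasminogen activator (0.80, SE 0.18, limma adjusted p = 0.381). In naïve arrays 2 were called higher in WAR N, *Timp1*, an inhibitor of metalloproteinases (0.86, SE 0.16, limma adjusted p = 0.00274), and *Penk*, the enkephalin precursor (0.60, SE 0.20, 0.0429). The genes *Vgf*, a neuropeptide precursor induced by neurotrophins (−1.14, SE 0.29, limma adjusted p = 0.0152), and *Cdk5*, a neuronal kinase (−0.36, SE 0.089, 0.0126), were called lower. Such counts are near the shares over all genes (11.6% higher and 9.38% lower).

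Markers of other cell types moved with strain as well, and their part in the strain differences of *Jun*, *Jund* and *Fosl2* was not tested. The mean log2 level of 6 endothelial markers was 7.93 to 8.42 in WAR S, against 7.43 to 7.51 in Wistar S, and 7.83 to 8.27 in WAR N, against 7.10 to 8.01 in Wistar N. That of 8 astrocyte markers was 10.91 to 11.17 in WAR S, against 11.44 to 11.48 in Wistar S, and 10.65 to 10.94 in WAR N, against 11.06 to 11.34 in Wistar N. That of 11 neuronal markers was 10.78 to 11.02 in WAR S, against 10.75 to 10.89 in Wistar S, and 10.43 to 10.78 in WAR N, against 10.71 to 11.05 in Wistar N. In naïve arrays 4 of these 11 were called lower in WAR N and none higher, where 9.38% of all genes were called lower and 11.6% higher. Of the 8 astrocyte markers 4 were called lower there and none higher, and of the 6 endothelial markers 3 were called higher and none lower. Red blood cell markers (4 measured) averaged 7.97 to 8.19 in WAR S, against 8.63 to 9.08 in Wistar S, and 7.86 to 8.36 in WAR N, against 8.29 to 8.91 in Wistar N. Lists that did not overlap between the stimulated groups were also lower in WAR S for meningeal fibroblasts (7.09 to 7.17, against 7.22 to 7.30 in Wistar S), ependymal and choroid plexus cells (6.46 to 6.74, against 6.80 to 6.83) and cerebellum (6.53 to 6.74, against 6.82 to 6.92), and higher for pericytes and smooth muscle (8.15 to 8.29, against 7.81 to 7.87). Microglial markers were higher without overlap among naïve arrays (8.58 to 8.66 in WAR N, against 8.20 to 8.37 in Wistar N), and oligodendrocyte markers overlapped in both settings.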

How the data were processed

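RNA of the IC was measured on 15 Affymetrix arrays, and samples were grouped by their labels. Per the labels, the deposited log2 values were made with RMA, which corrects background, quantile normalizes and summarizes probes, and no version is named. Raw intensities were not used here, so signal over background is unknown, and precision is limited by the number of arrays. Of 29214 probe sets, 15310 carried 1 gene symbol in the platform annotation, 323 several and 13581 none. The brightest probe set of each of 14506 genes was tested, of which 14480 matched a RefSeq table (GRCr8) by gene ID.

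All genes were fitted with limma 3.58.1 in R 4.3.3 (lmFit, eBayes, a mean per group over 15 arrays), with Benjamini-Hochberg adjustment over all genes and a threshold of 0.05. The label set comparisons used a mean per group and label set. Of the 6 comparisons, the difference between label set effects was added after the values had been seen. Single members also had exact two-sided permutation tests. The step was tested on simulated data. The members, gene lists and tests were chosen with earlier results of these data known. The text names all members, from each list the genes past the threshold (at most 6) or the 1 or 2 with the smallest p, and the 5 genes most like *Fos*. The methods of the study name SAM with a fold of 2, and that threshold was an alternative here. Other alternatives were label set or replicate number as a block, 1 label set only, only the compared groups, a filter on dim genes, other choices of probe set, eBayes with trend, array weights, cyclic loess and each array left out in turn. Protein sequences were not used here. P-values measure the spread between these arrays.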

Additional observations from a re-analysis of the deposited data

Results flagged for a closer look

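Within groups of 4 or 5 arrays, 12 of 129 groups looked at, over 43 genes, held an array far from the others by Dixon's criterion. Chance meets this criterion in about 1 of 20 groups of values without ties. Stimulated arrays share values, so that rate cannot be applied to WAR S, and some of the gaps there are small. Of the members, *Fos* was highest in WAR N replicate 4 (8.20, next 7.62) and *Jun* lowest in WAR S replicate 4 (8.61, next 8.79). Further genes with a WAR S array far above the others were *Cebpb* in replicate 3 (6.33, where the other WAR S arrays are tied at 6.21) and *Creb1* in replicate 2 (9.15). Those with a WAR S array far below the others were *Mafk* in replicate 5 (7.11), *Atf1* in replicate 4 (8.91), *Ier5* in replicate 4 (7.13) and *Map2k7* in replicate 1 (9.04). In WAR N replicate 4, 4933412E24Rikl (5.82) and *Vim* (10.8) were far above the other WAR N arrays. In Wistar N, *Atf1* was highest in replicate 1 (8.74), the array that lay beside the WAR N arrays on the first principal component, and *Map2k7* lowest in replicate 4 (8.56).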

How the results depend on the processing

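Over the alternatives, the number of members called was 0 for WAR S against Wistar S except with array weights, which called 1 (*Fosl2*, limma adjusted p = 0.00572) among 9.88% of all genes. For WAR N against Wistar N it was 0 within label set 1 (1.5% of all genes called), 0 with only the compared groups (6.06%) and 0 at the fold threshold of the methods (1.76%). With an array left out it was 1 to 2 (13.7% to 41.1% of all genes). For the interaction it was 1 with array weights (*Jund*, among 23.1% of all genes) and 0 to 1 with an array left out. Between the label sets of WAR S it was 0 with only the compared groups, 4 with array weights (*Fos*, *Fosl2*, *Junb* and *Atf3*, among 3.19% of all genes) and 1 with any array left out. Between the label sets of naïve arrays it was 0 to 1 with an array left out. The 1 was *Fosl2* without Wistar N replicate 1 (limma adjusted p = 0.026), among 1.81% of all genes. For the difference between label set effects it was 2 at the fold threshold (among 0.145% of all genes), and 1 to 2 with an array left out. The second was *Fos* without Wistar N replicate 4, in a fit that called 7.46% of all genes, against 0.0138% with all arrays. *Junb* kept that call in all 21 alternatives.

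Same-numbered arrays did not deviate together (correlations of 0.03 and −0.05 in stimulated and −0.31 to 0.06 in naïve arrays). This gave no sign that the numbers pair the arrays, though so few arrays cannot exclude it. With the replicate number as a block, 1 member, *Jun*, was called in naïve arrays and 0 in stimulated ones, over 2490 and 16 genes called, against 3037 and 60 without it.

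The number of genes called moved by more than the members did. Without Wistar N replicate 1, 5968 genes were called in naïve arrays and 2956 in the interaction, against 3037 and 15 with it. With only the compared groups, 879 were called in naïve and 274 in stimulated arrays, and array weights called 4667 and 1433.

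Directions that reversed were all of values that did not pass the test, and the cause was not tested. Within label set 1 the strain difference of *Atf3* in stimulated arrays was −0.0457 and that of *Fosl1* in naïve arrays −0.0021. The interaction of *Fosl1* was −0.0144 with label set as a block and −0.0755 with array weights, and that of *Atf3* was 0.033 after cyclic loess. The label set difference of *Jund* in WAR S was 0.000835 with array weights. With an array left out, the interaction ranged from −0.0897 to 0.049 for *Atf3* and from −0.0938 to 0.155 for *Fosl1*, the naïve label set difference of *Fosl1* from −0.0633 to 0.163, and the WAR S label set difference of *Jund* from −0.0805 to 0.0334. The difference between label set effects ranged from −0.0659 to 0.138 for *Fosl2* and from −0.0251 to 0.239 for *Jun*.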
